A study of Rattus norvegicus with 7 samples.

Results

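The proteasome genes described here are the 25 genes, of 4736 with a probe set that carries a single gene symbol, whose symbol begins with Psma, Psmb, Psmc, Psmd or Psme, with Psmb8 and Psmb9 set aside. Each gene is represented by its brightest probe set, the one with the highest mean log2 signal over the arrays. Of the 25, 23 belong to the constitutive proteasome and its partners and 2, Psme1 and Psme2, to the interferon-induced activator, which is described apart. All 25 passed a filter on low signals that 4709 of 8740 probe sets passed. The genes were chosen by symbol, with earlier results of these data known.

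The proteasome is the barrel-shaped protease that degrades ubiquitin-tagged proteins in the cytosol and nucleus. Its core particle stacks rings of alpha subunits, which gate the channel, on rings of beta subunits, some of which carry the proteolytic sites. A regulatory particle of ATPase and non-ATPase subunits binds the ubiquitin chain, unfolds the substrate and feeds it into the core, and interferon-gamma adds alternative beta subunits and the activator made by Psme1 and Psme2, which favour peptides for presentation on MHC class I molecules. Neurons depend on the proteasome for turnover of synaptic proteins, and glial cells raise the interferon-induced forms in inflammation.

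RNA came from primary cultures of hippocampal neurons and hippocampal astrocytes from Wistar rats, given in the labels as 17-day-old, kept for 24 h with grape seed extract (GSE). The doses were 0, 1 and 10 µg/ml for neurons, with 100 µg/ml added for astrocytes, and each of these 7 groups is represented by 1 Affymetrix rat array, so no dose has a replicate. Every culture was kept in the same DMEM-based medium with N1 supplement and antibiotics, and the 0 µg/ml cultures were the controls. The labels do not say how many animals or cultures gave each RNA, so p-values measure only the spread between these arrays.

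Signals are given below in order of dose, at 0, 1 and 10 µg/ml in neurons and at 0, 1, 10 and 100 µg/ml in astrocytes. They are linear array intensities scaled by array, and since probe sets differ in brightness they are compared across arrays within a gene and never between genes. Cell types were compared over the 3 arrays of each at the shared doses (0, 1 and 10 µg/ml), so the spread within a cell type includes any effect of the extract at those doses. Differences are log2, neurons minus astrocytes, with the standard error (SE) and the adjusted p of limma with Benjamini-Hochberg adjustment over all 4709 probe sets, and a difference was called at an adjusted p under 0.05.

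Markers of the labelled cell types were read from lists of known genes. Of 10 neuron markers 7 were on the array, and all 7 passed the filter and were called higher in neurons, and their summed signal ran from 13242 to 13980.2 in neurons and from 841 to 1745 in astrocytes. Of 8 astrocyte markers 7 passed, and they did not separate the cultures in this way: 2 were called higher and 3 lower in neurons, with summed signals of 44590.0 to 45251 in neurons and 44991 to 53588 in astrocytes. The astrocyte cultures also held more signal of other cell types: all 4 passing microglia and macrophage markers (of 11 listed), all 4 oligodendrocyte markers (of 6) and all 6 fibroblast markers (of 6) were called lower in neurons. Summed oligodendrocyte markers were 638 to 734 in neurons and 5746 to 7475 in astrocytes, and fibroblast markers 9518 to 11354 and 32931 to 41826. Of 6 endothelial markers 2 passed and 1 was called higher in neurons, with sums of 343 to 517.5 and 180.5 to 254. No list had a gene at or under the signal floor of 17.9 on all 7 arrays. In bulk cultures fewer cells of a type and less RNA per cell cannot be told apart.

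Promoters are shown for the interferon-induced genes, because the results below turn on them, and for the other members that share a motif with them. RefSeq (assembly GRCr8) gave a promoter of 300 bases, 250 before and 50 after the annotated start, for 24 of the 25 members, with none used for Psma7. The sequences below end at the start site unless stated, run 5′ to 3′ on the gene's strand, and carry in capitals any match to the GAAA pair (GAAA, any 2 bases, GAAA), the paired core that interferon regulatory factors such as Irf1 bind, searched on both strands.
Psme2: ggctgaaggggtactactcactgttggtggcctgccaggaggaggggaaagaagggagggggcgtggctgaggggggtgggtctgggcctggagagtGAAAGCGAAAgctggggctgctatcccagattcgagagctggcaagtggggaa
Psmb8: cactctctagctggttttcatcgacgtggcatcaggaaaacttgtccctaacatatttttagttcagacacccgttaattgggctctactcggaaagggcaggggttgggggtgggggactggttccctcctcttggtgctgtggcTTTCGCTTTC
Psme1: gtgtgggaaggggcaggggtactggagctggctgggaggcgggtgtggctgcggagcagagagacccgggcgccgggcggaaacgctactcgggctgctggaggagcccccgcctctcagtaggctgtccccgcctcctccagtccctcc
Psmb9: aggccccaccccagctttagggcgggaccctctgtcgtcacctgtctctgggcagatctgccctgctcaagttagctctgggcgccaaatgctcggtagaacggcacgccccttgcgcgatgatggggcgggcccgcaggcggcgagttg
Psma4: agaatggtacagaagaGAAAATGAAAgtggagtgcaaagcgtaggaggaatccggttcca
Psmb3: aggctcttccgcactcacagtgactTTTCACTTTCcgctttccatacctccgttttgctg
The Psme2 stretch is chr15:33052752-33052901 on the minus strand, and the match begins 53 bases before the start. The Psmb8 stretch is chr20:4657026-4657181 on the minus strand, runs 6 bases past the start, and its match reads on the opposite strand from 4 bases before the start. The Psme1 stretch, chr15:33038821-33038970 on the plus strand, and the Psmb9 stretch, chr20:4668850-4668999 on the plus strand, hold no match, and neither does the rest of their 300 bases. The windows of Psma4 and Psmb3 hold 60 bases around the match. The Psma4 window is chr8:64236270-64236329 on the plus strand with a match from 234 bases before the start, and the Psmb3 window is chr10:83193619-83193678 on the plus strand with a match on the opposite strand from 143 bases before the start.

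The GAAA pair was thus in 3 of 24 member promoters (12.5%), against 3.92% of all 33469 rat promoters in the table. The motif TTCNNNGAA, bound by STAT factors, was in none of the 24 against 8.87% of all promoters, and Psmb8 held it 245 bases before its start. The motif TGACNNNGC, bound by the Nfe2l1 and Nfe2l2 factors that regulate proteasome genes, was in 4 of 24 (16.7%; Psmb2, Psmb5, Psmd1 and Psme4) against 12.1%. CCAAT, bound by NF-Y, was in 12 of 24 (50%) against 37.5%. All motifs were searched on both strands. In Psmb2 a CCAAT and a TGACNNNGC match share 1 base, and no other matches overlapped. A match is a description of the sequence and shows no binding. Psme1 and Psme2 neighbour each other on chromosome 15 with 1 protein-coding gene, Emc9, between them, as Psmb8 and Psmb9 do on chromosome 20 with Tap1 between.

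The signals of most constitutive proteasome genes varied little over these arrays. Over all 7 arrays the highest signal was a median of 1.55 times the lowest, from 1.18 for Psmb1, a beta ring subunit, to 3.52 for Psme4, an activator that caps the core. This range was under 2-fold for 20 of the 23 genes (87.0%), against 38.7% of all probe sets that passed the filter and 45.7% of the 2488 above a stricter filter. The median SD of log2 signal over the 3 shared-dose arrays was 0.0996 in neurons and 0.0966 in astrocytes, against 0.134 and 0.213 for all probe sets that passed and 0.106 and 0.181 for those above the stricter filter, so in neurons the genes lay close to the brighter probe sets. The 3 constitutive genes past 2-fold were Psma4 (2.13), Psma5 (2.20) and Psme4, and in each the array at 100 µg/ml was the lowest of the 7.

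**Figure D1:**
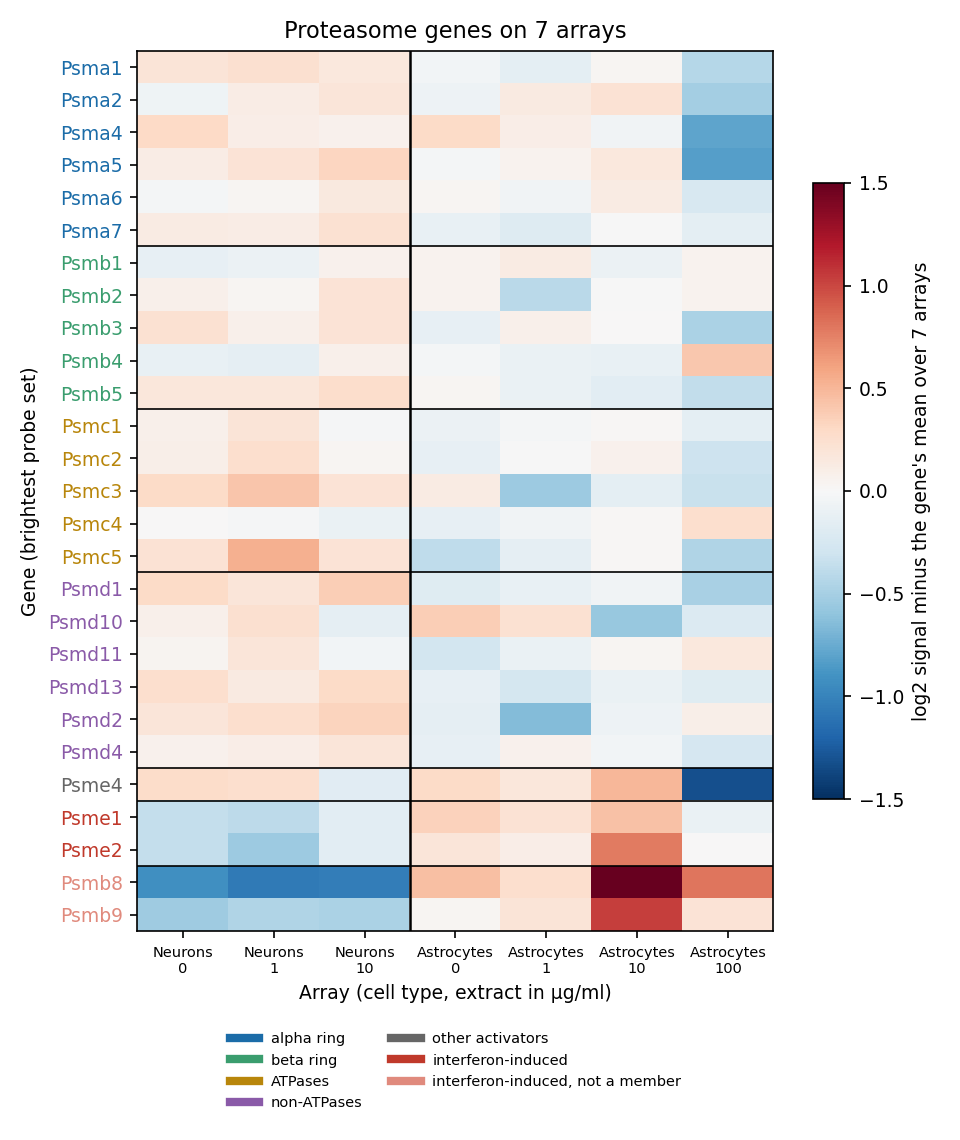
Signal of each proteasome gene on each of the 7 arrays (columns, cell type and GSE dose in µg/ml), drawn as log2 signal minus that gene's mean over the 7 arrays (colour, red above and blue below the mean), with genes coloured by role and Psmb8 and Psmb9 under the members. Most rows are pale, the rows of the interferon-induced genes are blue in neurons and deepest red in astrocytes at 10 µg/ml, and Psme4, Psma4 and Psma5 are blue at 100 µg/ml.

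Of the constitutive genes, 7 of 23 (30.4%) were called higher in neurons and none lower, where 25% of all probe sets were called higher and 19.3% lower. The 7 were Psmd2, Psmc3, Psmc5, Psmd1, Psmd13, Psmb5 and Psma7, by 1.19- to 1.46-fold. Estimates were positive for 20 of 23 genes (87.0%, against 55.6% of all probe sets), and their median was 0.14 against 0.07. The share called higher is near the background. Of the 23, 8 had an unadjusted p under 0.05, all with positive estimates, where 52.5% of all probe sets had one.

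Of the regulatory particle genes, with the assembly chaperone Psmd10 counted among them, 5 of 11 were called, where 25% of all probe sets were called higher. The non-ATPase group, which holds Psmd10, had the highest median difference of the groups, 0.28, with 3 of 6 called. The groups are small and were not tested against each other. Psmd2, a large scaffold subunit of the base, had signals of 3514, 3690.4 and 3897 in neurons and 2826, 1965, 2937 and 3274 in astrocytes. Every neuron array lay above every astrocyte array, and the astrocyte array at 1 µg/ml was the lowest of the 7. Psmd2 averaged 3700.2 ± 192 in neurons and 2576 ± 532 in astrocytes (SD, n = 3 each), a difference of 0.54 (SE 0.16, limma adjusted p = 0.0255). Leaving out that lowest array gave 0.36 (limma adjusted p = 0.0277), and with the array at 100 µg/ml included 0.45 (limma adjusted p = 0.0934).

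Psmd1, the other large scaffold of the base, had signals of 3891, 3604 and 4116 in neurons and 2805, 2959, 3086 and 2272 in astrocytes, again without overlap, and differed by 0.39 (SE 0.09, limma adjusted p = 0.00969). Its 3 probe sets that passed the filter gave differences of 0.37 to 0.48. Psmd1 alone of the 7 kept its call when any of the 6 arrays was left out. With the mean over all of its probe sets, which takes in one below the filter, the Psmd1 difference was 0.10 (limma adjusted p = 0.589). Psmd13, a lid subunit, had signals of 1552, 1429.5 and 1589.5 in neurons and 1196, 1091, 1215 and 1155 in astrocytes and differed by 0.38 (SE 0.10, limma adjusted p = 0.0169).

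Among the ATPases, which form the ring that unfolds substrates, 2 of 5 were called, against 25% of all probe sets. Their median difference was 0.14. Psmc5 had signals of 2268, 2824 and 2259 in neurons and 1507, 1778, 1982 and 1434 in astrocytes. The neuron array at 1 µg/ml was the highest, the untreated astrocyte array the lowest of the shared doses, and the cell types did not overlap (0.48, SE 0.14, limma adjusted p = 0.0259). Psmc3 had signals of 2707, 2964 and 2563 in neurons and 2409.7, 1521, 2013 and 1755 in astrocytes, and differed by 0.49 (SE 0.17, limma adjusted p = 0.0461). The lowest Psmc3 array was that of astrocytes at 1 µg/ml, and without it the difference was 0.31 (limma adjusted p = 0.0943).

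In the core particle 2 of 11 genes were called higher in neurons, where 25% of all probe sets were. Psmb5, the beta subunit with the chymotrypsin-like site, had signals of 5534, 5542 and 5886 in neurons and 5015, 4579, 4404 and 3802 in astrocytes. All neuron arrays were above all astrocyte arrays, and the difference was 0.28 (SE 0.08, limma adjusted p = 0.0293), with 0.17 to 0.41 over its 3 probe sets. Of the other catalytic subunits, Psmb6 shares its probe sets with a second symbol and so falls outside the rule, and Psmb7 and Psmb10 were not analysed here. Psma7, an alpha ring subunit, had signals of 6338, 6300.5 and 6814 in neurons and 5418, 5092, 5799.9 and 5266 in astrocytes and differed by 0.26 (SE 0.08, limma adjusted p = 0.0398). Psma1 and Psmb3 also did not overlap between the cell types but were not called (0.25, limma adjusted p = 0.0775, and 0.19, limma adjusted p = 0.178). With them 9 of 23 constitutive genes had every neuron array above every astrocyte array at the shared doses (39.1%, against 32.4% of all probe sets).

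The other 16 constitutive genes were not called. The alpha ring subunits Psma2, Psma4, Psma5 and Psma6 had estimates from -0.01 to 0.14, and the beta subunits Psmb1, Psmb2 and Psmb4 from -0.07 to 0.23. Psmb1 had signals of 3693, 3785 and 4206 in neurons and 4151, 4366, 3783 and 4154 in astrocytes, which overlapped throughout. For Psma6 the 95% interval of the difference was -0.19 to 0.22, and for Psmb4 it was -0.17 to 0.22. The ATPases Psmc1, Psmc2 and Psmc4 had estimates from 0.02 to 0.14, and the non-ATPases Psmd4, a ubiquitin receptor, and Psmd11, a lid subunit, had 0.14 and 0.18. Psmd10, a chaperone of ATPase assembly, was dim, at 87.2, 97.9 and 75.3 in neurons and 107, 97.4, 55.8 and 72 in astrocytes, and its interval was the widest of the members (-0.60 to 0.70). Psme4 had the lowest constitutive estimate, -0.20 (95% interval -0.60 to 0.20).

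The count of 7 changed when single arrays were left out, in fits that have fewer arrays. Leaving out the untreated neuron array left 1 of the 7 calls, and leaving out the neuron array at 1 µg/ml, the neuron array at 10 µg/ml or the astrocyte array at 1 µg/ml left 2 in each case. In all these fits the estimates of the 7 stayed positive. Without the untreated neuron array the estimates of Psmd2, Psmc5, Psma7, Psmb5 and Psmc3 were higher than with all 6 arrays. Those of Psmd13 and Psmd1 were lower. The SE was larger for each of the 7, as for Psmd2 (0.19 against 0.16). The share of all probe sets called was not counted in these fits. With dose as a block, which pairs the arrays of a dose, 4 calls were kept, and Psmb5, Psma7 and Psmc3 lost theirs (limma adjusted p of 0.0792, 0.0715 and 0.0715).

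The interferon-induced activator ran the other way. Both of its genes were called lower in neurons, where 19.3% of all probe sets were. Psme1, its alpha subunit, had signals of 2814, 2753 and 3225 in neurons and 4582, 4209, 4887 and 3372 in astrocytes. Every neuron array was below every astrocyte array, including that at 100 µg/ml, and neurons averaged 2931 ± 257 against 4559 ± 339.6 (SD, n = 3 each), or 1.56-fold lower (-0.64, SE 0.10, limma adjusted p = 0.00166). This call was kept in every alternative fit run.

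Psme2, the beta subunit of the same ring, had signals of 656, 574 and 749 in neurons and 952, 896, 1442 and 844 in astrocytes. No array overlapped (as in 24.2% of all probe sets, with neurons below), the astrocyte array at 10 µg/ml stood highest, and neurons averaged 659.6 ± 87.7 against 1097 ± 301 (SD, n = 3 each). Psme2 was 1.63-fold lower in neurons (-0.71, SE 0.20, limma adjusted p = 0.0233). Without the untreated neuron array the limma adjusted p was 0.0726, and without the neuron array at 1 µg/ml it was 0.0884. With the astrocyte array at 100 µg/ml included it was 0.0657.

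Psmb8 and Psmb9, the beta subunits that replace constitutive ones in the immunoproteasome, lie outside the rule but are set beside the activator. Psmb8 had signals of 348, 317 and 321 in neurons and 907, 789, 1887 and 1152 in astrocytes, and was 3.37-fold lower in neurons over the shared doses (-1.75, SE 0.30, limma adjusted p = 0.00252). Psmb9 had signals of 820.0, 865 and 849.7 in neurons and 1205, 1359, 2427 and 1366 in astrocytes, and was 1.88-fold lower (-0.91, SE 0.24, limma adjusted p = 0.019). The Psmb9 call was lost without the neuron array at 0, 1 or 10 µg/ml (limma adjusted p of 0.0663, 0.0583 and 0.0551), while leaving out astrocytes at 10 µg/ml gave a difference of -0.60 (limma adjusted p = 0.00282). For both genes all neuron arrays lay below all astrocyte arrays. Irf1, a transcription factor that drives these genes, had an estimate of -1.09 with a wide error (SE 0.55, limma adjusted p = 0.145).

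The rest of the MHC class I pathway was read from a list of 19 genes, of which 11 were on the array and 10 passed the filter. The 10 include Psme1, Psme2, Psmb8, Psmb9 and Irf1, described above. Of the 10, 8 were called lower in neurons and none higher, where 19.3% of all probe sets were lower and 25% higher. Leaving out the 4 proteasome genes, 4 of 6, with Irf1 among the 6, were lower, and these were Tap2, B2m, RT1-S3 and RT1-M3-1. Tap2, a subunit of the peptide transporter, differed by -0.93 (limma adjusted p = 0.00832), and B2m, the light chain of class I, by -0.34 (limma adjusted p = 0.00976). The class I heavy chain genes RT1-S3 and RT1-M3-1 differed by -2.18 and -1.10. Tap1, the other transporter subunit, had -1.03 (limma adjusted p = 0.108). The summed signal of the 8 microglia and macrophage markers on the array was 1069.9, 711 and 889 in neurons and 5519, 6389, 6687 and 2782 in astrocytes, so it differed between the cultures in the same direction, and its part in these results was not tested.

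**Figure D2:**
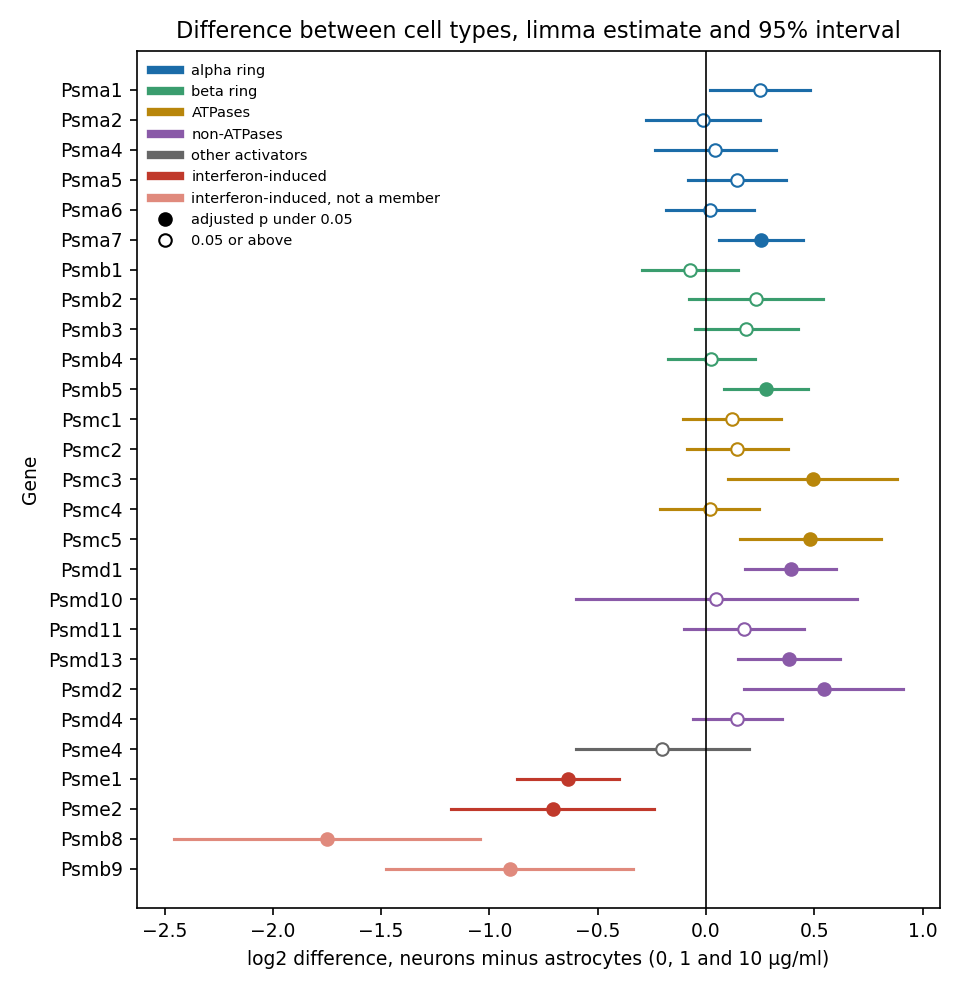
Difference in log2 signal between neurons and astrocytes for each gene (horizontal axis, points are limma estimates over 3 arrays per cell type at 0, 1 and 10 µg/ml and bars are 95% intervals), with filled points at an adjusted p under 0.05. The 7 filled constitutive genes lie right of 0, between 0.26 and 0.54, and Psme1, Psme2, Psmb8 and Psmb9 lie left of it, between -0.64 and -1.75.

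At the doses given to neurons the proteasome genes stayed close to the untreated neuron array. By the brightest probe sets no member was 1.5-fold higher or lower at 1 µg/ml, where 2.63% of all probe sets were higher and 2.29% lower. The same held at 10 µg/ml, where 2% of all probe sets were higher and 4.14% lower. A dimmer Psma5 probe set that passed the filter was 1.68-fold higher at 1 µg/ml (0.75) and stood at 0.10 at 10 µg/ml. The median log2 change of the constitutive genes was 0.04 at the lower dose and 0.03 at the higher, against 0.00 and -0.01 for all probe sets. Among the brightest probe sets, the constitutive gene farthest from untreated was Psme4 at 10 µg/ml (-0.44). All changes within a cell type are measured from the same untreated array, each from 1 treated array, so they have no test and no replicate check.

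In astrocytes at 1 µg/ml the median of the constitutive genes was -0.07, against -0.01 for all probe sets, and 0.056 among those above the stricter filter, so its direction depends on the filter. By the brightest probe sets Psmc3 was the only member past 1.5-fold, 1.58-fold lower than untreated (-0.66). Of all probe sets 6.01% were lower and 5.22% higher by 1.5-fold. Psmd2 (-0.52) and Psmb2 (-0.46) came next, and at 10 µg/ml their changes were 0.06 and -0.06. A dimmer Psmd4 probe set that passed the filter stood at 0.82 at 1 µg/ml, beside 0.19 for its brightest.

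At 10 µg/ml in astrocytes Psme2 and the immunoproteasome subunits stood above the untreated array while most constitutive genes stayed near it. Psme2 was 1.52-fold higher (0.60), by the brightest probe sets the only member past 1.5-fold upward, where 9.56% of all probe sets were. Psme1 was 1.07-fold higher (0.09). A dimmer Psmd4 probe set that passed the filter was 1.63-fold higher (0.71), beside 0.08 for its brightest. Outside the members Psmb8 was 2.08-fold higher and Psmb9 2.01-fold. Irf1 had signals of 2431, 3305, 12761 and 4719.7, and was 5.25-fold higher than untreated at 10 µg/ml, and 1.94-fold at 100 µg/ml. In neurons at 10 µg/ml the changes were 0.19 for Psme2, -0.12 for Psmb8, 0.05 for Psmb9 and -0.29 for Irf1.

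Of the 10 class I pathway genes that passed the filter, 8 were at least 1.5-fold higher in astrocytes at 10 µg/ml. Among all probe sets the share was 9.56%. The 8 include Psme2, Psmb8, Psmb9 and Irf1, given above. Leaving out the proteasome genes the count was 5 of 6, Irf1 included, with a median of 0.88 against -0.10 for all probe sets. Tap1 had signals of 757, 654, 2535 and 1920.3 in astrocytes, with 1.74 at 10 µg/ml and 1.34 at 100 µg/ml. Psme1 and B2m (0.15) were the 2 that did not pass 1.5-fold. In the promoters printed above, Psme2 and Psmb8 hold a GAAA pair and Psme1 and Psmb9 do not. Psma4 and Psmb3 hold one too, and stood at -0.34 and 0.12. The summed microglia and macrophage markers were 5519 in untreated astrocytes and 6687 at 10 µg/ml, and their part in these changes was not tested.

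**Figure D3:**
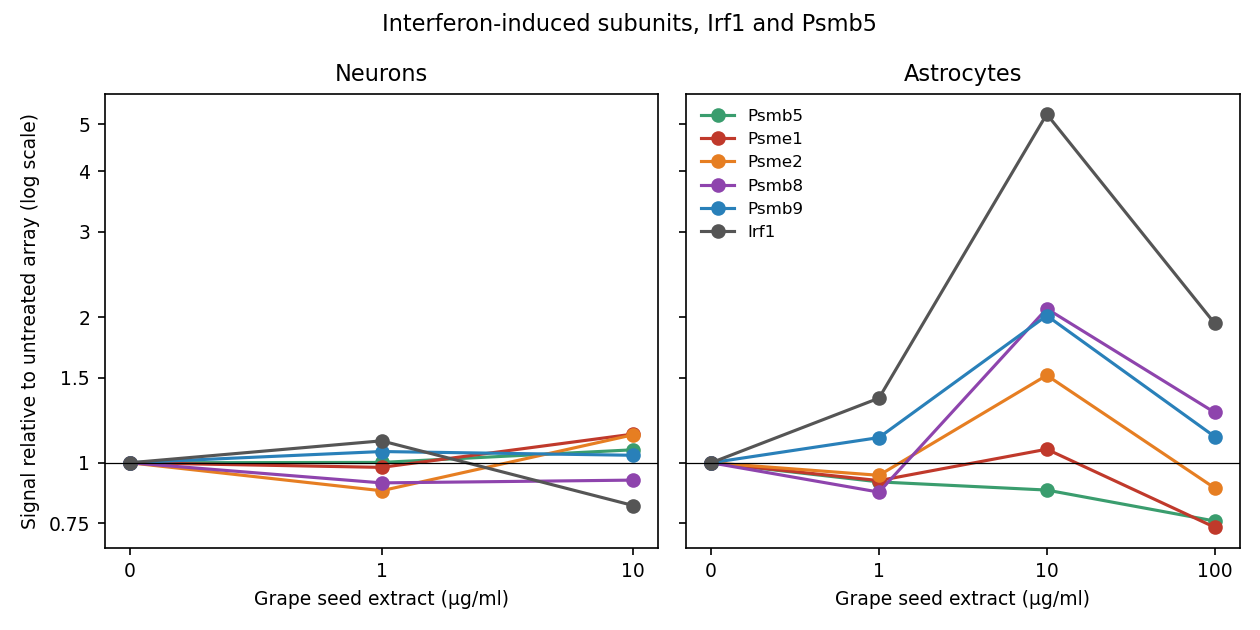
Signal of Psme1, Psme2, Psmb8, Psmb9 and Irf1, with the constitutive catalytic subunit Psmb5, divided by the untreated array of the same cell type (vertical axis, log scale, 1 array per point) against the dose of GSE in µg/ml. In astrocytes Irf1 reaches 5.25 times its untreated signal at 10 µg/ml and Psmb8, Psmb9 and Psme2 reach 2.08, 2.01 and 1.52 times, while in neurons all lines stay near 1.

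The constitutive genes at 10 µg/ml in astrocytes had a median of 0.09, with 16 of 23 above untreated (69.6%, against 38.7% of all probe sets). The median of all probe sets was -0.10. Relative to it the constitutive median was 0.19 with 18 of 23 above (78.3%, against 50% of all probe sets by definition). The member farthest below was the dim Psmd10 (-0.94), where 11.3% of all probe sets were 1.5-fold lower. By the brightest probe sets, Psmc5 (0.40), Psmd11 (0.30) and Psma2 (0.30) were the highest constitutive genes.

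At 100 µg/ml, given to astrocytes alone, most proteasome genes had a lower signal than in the untreated culture, and so did most probe sets. Of the 25 members 20 were below the untreated array, where 65.9% of all probe sets were. The median change was -0.19 for the constitutive genes and -0.27 for all probe sets, so relative to all probe sets the constitutive median was 0.08, and its direction depends on this scaling. In the astrocyte cultures the summed microglia and macrophage markers went from 5519 at 0 µg/ml to 2782 at 100 µg/ml. Neuron markers went from 1736 to 841, astrocyte markers from 51250 to 44991 and fibroblast markers from 41826 to 32931. Endothelial markers went from 254 to 224.5, and oligodendrocyte markers rose from 6719 to 7475. The part of these cell types in the changes at this dose was not tested. Changes at 100 µg/ml are given both as deposited and relative to the median of all probe sets.

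As deposited, Psme4, Psma4 and Psma5 passed 1.5-fold downward at 100 µg/ml (3 of 25 members) and none upward, where 34.7% of all probe sets were lower and 11.9% higher. Psme4, which opens the core without ATP, had signals of 310.4, 306 and 229 in neurons and 314, 289.5, 363 and 103 in astrocytes. The array at 100 µg/ml was the lowest of the 7, 3.05-fold below untreated astrocytes (-1.61, relative -1.33). Psma4, an alpha ring subunit, had signals of 2374, 2069 and 2029 in neurons and 2364, 2066, 1868 and 1116 in astrocytes, and was 2.12-fold lower (-1.08, relative -0.81). Psma5, its neighbour in role, had 2787, 2976 and 3225 in neurons and 2546, 2693, 2894 and 1465 in astrocytes, and was 1.74-fold lower (-0.80, relative -0.52), with its other passing probe set at -0.78. For Psma4 each treated array was also below the untreated array of its cell type, while for the brightest Psma5 probe set the other treated arrays were above it, and for its other passing probe set the astrocyte arrays at 1 and 10 µg/ml were below it (-0.11 and -0.15).

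Relative to the median of all probe sets, Psme4 and Psma4 were still 1.5-fold lower, where 23.9% were, and 3 members were 1.5-fold higher, where 19.5% were. These 3 were Psmb4, Psmd11 and Psmc4, which were under 1.5-fold as deposited. Psmb4, a beta ring subunit, had 6181, 6062 and 7031 in neurons and 6519, 6212, 6171 and 8844 in astrocytes, with the array at 100 µg/ml the highest of the 7 (0.44, relative 0.71). Its other probe sets gave 0.28 and 0.40 as deposited. Psmd11 had 1469, 1622 and 1394 in neurons and 1181, 1337, 1458 and 1589 in astrocytes (0.43, relative 0.70), and Psmc4 had 1218, 1198 and 1132 in neurons and 1114, 1166, 1228 and 1434 in astrocytes (0.36, relative 0.64). For both genes the signals in the 4 astrocyte arrays stood in the order of the dose. Neither astrocyte slope was called (limma adjusted p of 0.191 for Psmd11 and 0.207 for Psmc4). The share of all probe sets in the order of the dose was not counted.

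By role, all 6 alpha ring genes were below the untreated array at 100 µg/ml, with a median of -0.41 as deposited and -0.14 relative to all probe sets, and 5 of 6 were below by the relative measure. The beta ring genes had a median of 0.00 (relative 0.27), the ATPases -0.07 (relative 0.20) and the non-ATPases -0.09 (relative 0.18). The interferon-induced pair had -0.31 (relative -0.03). No test of the difference between these groups was made.

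Probe sets of a gene differed at this dose. Of the 11 members with several probe sets above the filter, 8 had the same sign of the relative change in all of them and 3 did not. Those 3 were Psmb3, Psmb5 and Psmd1. Psmb5 had relative changes of -0.13 to 0.21, and Psmd1 of -0.32 to 0.31. For the difference between cell types the sign was the same in 9 of the 11, all but Psma2 and Psmb4, whose estimates lay near 0. Psmd4 had 1 probe set at 0.73 as deposited beside -0.13 for its brightest. Psma2 had 1 at -0.73 beside -0.44 for its brightest and -0.45 for the remaining probe set.

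**Figure D4:**
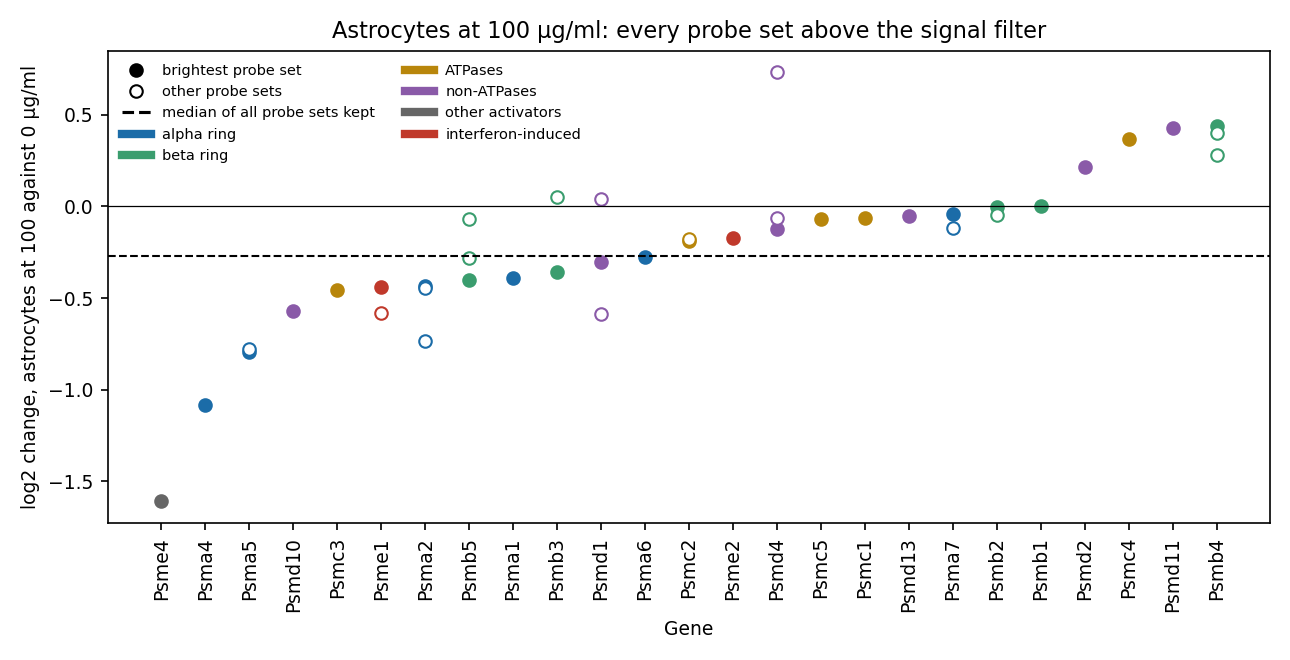
Log2 change of every member probe set above the signal filter in astrocytes at 100 µg/ml against untreated astrocytes (vertical axis, 1 array each), by gene, with filled points for the brightest probe set, open points for the others and a dashed line at the median of all probe sets (-0.27). Psme4 and Psma4 lie lowest at -1.61 and -1.08, Psmb4 has the highest filled point at 0.44, and the highest open point is a Psmd4 probe set at 0.73. Open points of Psma2, Psmb5, Psmb3, Psmd1 and Psmd4 lie away from their filled points.

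A dose trend was fitted in astrocytes as a slope per unit of log10 of the dose plus 1, over the 7 arrays with 3 residual degrees of freedom. Of the 25 members, 1 was called, where 15.5% of all probe sets were called falling and 5.03% rising. It was Psma4, which fell with a slope of -0.51 (SE 0.10, limma adjusted p = 0.0194). Without the array at 100 µg/ml the slope was -0.30 (limma adjusted p = 0.338), and leaving out any other array except that at 10 µg/ml took the adjusted p to between 0.0536 and 0.0954. With the astrocyte array at 10 µg/ml left out, 4 members were called. The share of all probe sets called in that fit was not counted, so the 4 have no background beside them.

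Among the brightest probe sets the next smallest p-values belonged to Psme4, with a slope of -0.74 (SE 0.25, limma adjusted p = 0.0819), and Psma5, with -0.39 (SE 0.15, limma adjusted p = 0.102). Of the members 5 had an unadjusted p under 0.05, where 37.6% of all probe sets did, and the other 2 were Psmb5 (-0.18, limma adjusted p = 0.112) and Psmb4 (0.22, limma adjusted p = 0.13). Dimmer probe sets of Psma2 and Psme1 had slopes of -0.38 and -0.29 (limma adjusted p of 0.0519 and 0.0625). The brightest probe sets of these genes had -0.23 and -0.18 (limma adjusted p of 0.256 and 0.262). In neurons limma called a trend in none of the members and in 0 of all probe sets, and no member had an unadjusted p under 0.05 where 1.91% of probe sets did. The slopes differed between the cell types in none of the members by limma, where 0.0212% of probe sets were called, and no member had an unadjusted p under 0.05 where 11.1% did.

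**Figure D5:**
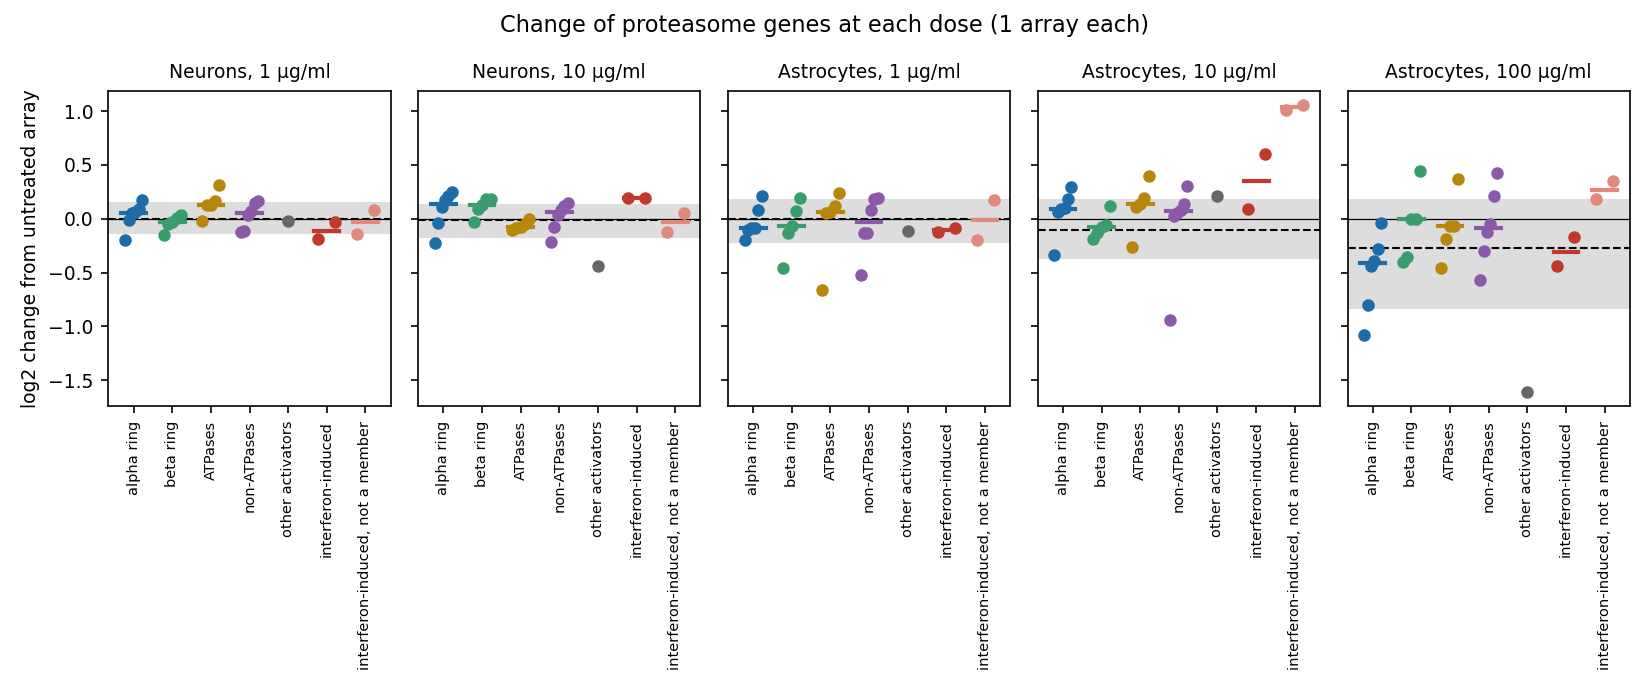
Log2 change from the untreated array of the same cell type for each gene (points, 1 array each) by role, in 5 panels for the treated arrays, with short bars at the median of each role, a dashed line at the median of all probe sets and a grey band from their lower to upper quartile. In neurons the points lie between -0.44 and 0.32, at 10 µg/ml in astrocytes Psmb8, Psmb9 and Psme2 lie highest, and 6 constitutive genes (Psmc5, Psmd11, Psma2, Psme4, Psmc2 and Psma5) also lie above the band, and at 100 µg/ml all 6 alpha ring genes lie below 0.

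Genes that act with the proteasome were read from a list of 45, of which 12 were on the array and 11 passed the filter. Limma called 2 of the 11 higher in neurons and none lower, where 25% of all probe sets were called higher and 19.3% lower. Uchl1, a deubiquitinase abundant in neurons, had signals of 5442, 5088 and 5551 in neurons and 1604, 1787, 1621 and 2657 in astrocytes, 3.21-fold higher (1.68, SE 0.09, limma adjusted p = 6e-06). Ube2b, a ubiquitin-conjugating enzyme, had 1911, 1880.0 and 1874 in neurons and 1517, 1460.3, 1456 and 945 in astrocytes (0.35, SE 0.09, limma adjusted p = 0.0124). Pomp, the chaperone of core assembly, had 4484, 4444 and 4827 in neurons and 4119.9, 2955, 3765 and 3953 in astrocytes (0.36, limma adjusted p = 0.0579).

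At 100 µg/ml the accessory genes farthest from untreated astrocytes were Sem1, Uchl1 and Ube2b. Sem1, a small lid subunit, had signals of 2715, 3084 and 3275 in neurons and 3227, 2896, 2053 and 1928 in astrocytes. In astrocytes it fell with dose (-0.38 per log10 unit, limma adjusted p = 0.0367), where 15.5% of all probe sets were called falling. The Sem1 slope was not refitted with an array left out. The Sem1 changes were -0.65 at 10 µg/ml and -0.74 at 100 µg/ml. Uchl1 stood at 0.73 and Ube2b at -0.68. Nfe2l2, whose factor binds the TGACNNNGC motif, had signals of 1153, 604, 1781 and 885 in astrocytes, lowest at 1 µg/ml and highest at 10 µg/ml. The 4 members with that motif in their promoters were Psmb2, Psmb5, Psmd1 and Psme4. Their changes were -0.46, -0.13, 0.08 and -0.12 at 1 µg/ml and -0.06, -0.19, 0.14 and 0.21 at 10 µg/ml. The medians of all constitutive genes were -0.07 and 0.09 at these doses. The member that fell most at 1 µg/ml, Psmc3 (-0.66), holds no match to the motif. The part of Nfe2l2 in these changes was not tested.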

How the data were processed

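Per the labels, the authors amplified and biotin-labelled 100 ng of total RNA from each culture and hybridized it to 1 array per cell type and dose. The deposited values are signal intensities on a linear scale, computed with GCOS per the submitters' processing notes. The program's version is not given in the sources used here. After trimming 2% the array means ran from 500.731 to 500.874, and this common scaling was kept.

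Control probe sets (59 of 8799) were left out. Signals were raised to a floor (25th percentile, 17.9) and log2 was taken, and a probe set was kept if its mean log2 signal in either cell type was above the median of all signals (79.9). Gene symbols came from the platform annotation (1 symbol for 7006 probe sets, several for 308, none for 1426). All 25 members matched RefSeq by gene ID. Cell types (4 residual degrees of freedom) and dose trends were fitted with limma 3.58.1 in R 4.3.3 (trended eBayes prior). Tests were two-sided with p-values adjusted by Benjamini-Hochberg over 4709 probe sets. The fits were also run on simulated arrays as a check of the code. That simulation gave all probe sets the same SD and planted effects larger than those called in the constitutive genes. It therefore cannot show how reliable these calls are. Changes at single doses have no test and were counted at 1.5-fold. Promoters were searched with Python 3.11.15.

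Genes given with full values were the members with the 4 largest differences each way between cell types, those at least 1.5-fold from untreated at any dose, the 3 smallest p-values of the astrocyte trend, the catalytic and interferon-induced subunits, and the 3 accessory genes with the largest changes and differences. Others are named for their role. Members and lists were chosen with earlier results of these data known. Precision is limited by the number of arrays. Alternatives in scaling, floor, filter, probe set summary, arrays, dose scale and variance prior were run, as were fits leaving out each array.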

Additional observations from a re-analysis of the deposited data

Results flagged for a closer look

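By their brightest probe sets, 2 members had every treated neuron array on one side of untreated and every treated astrocyte array on the other. Psmb5, the subunit with the chymotrypsin-like site, was 0.00 to 0.09 above untreated in neurons and between -0.40 and -0.13 in astrocytes on the log2 scale, a difference in mean change of 0.29. Psmc4, an ATPase, lay between -0.11 and -0.02 in neurons and 0.07 to 0.36 above untreated in astrocytes, a difference of -0.26. These differences of mean change were not tested. The slopes on dose, which were tested, gave limma adjusted p-values of 0.542 for Psmb5 and 0.614 for Psmc4 for the difference between cell types. Opposite directions of this kind were found in 706 of 4709 probe sets (15%), and all changes within a cell type share 1 untreated array. At 100 µg/ml the sign of the Psmb5 change relative to all probe sets was not the same in its 3 probe sets. The opposite directions of Psmb5 were also not in all of them. A dimmer probe set was below untreated in neurons (-0.11 and -0.12) and in astrocytes (-0.18, -0.16 and -0.07). The remaining probe set went opposite ways, with 0.15 and 0.07 in neurons and -0.002, -0.19 and -0.28 in astrocytes.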

How the results depend on the processing

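Across 21 alternatives no called difference changed its direction. The Psme4 slope in astrocytes, which was not called, was 0.25 without the array at 100 µg/ml. The count of 7 constitutive genes called higher in neurons was 4 with no signal filter, with dose as a block and with a constant variance prior, and 1 to 7 over the fits that left out 1 array. The count of 2 interferon-induced genes called lower in neurons was 1 with no signal filter and with all 7 arrays, and 1 to 2 with 1 array left out. The 1 astrocyte trend called was lost (0) with no signal filter, with the rank of the dose and with astrocytes fitted alone, and the count was 0 to 4 with 1 array left out. The constitutive median in astrocytes was 0.056 at 1 µg/ml with the stricter filter, 0.19 at 10 µg/ml and 0.084 at 100 µg/ml when centred on the median change (a change of sign at the highest dose), and -0.079 at 100 µg/ml with the mean over probe sets. Centring also made 3 members 1.5-fold higher at 100 µg/ml. Fits without an array have fewer samples, and the share of all probe sets called in them was not counted. For the other alternatives the cause was not tested. Values of single genes were within their call or spread in 183 comparisons with an alternative, lost a call in 53, moved by more than 0.0994 on the log2 scale in 21 and gained a call in 1. With 1 array per dose, brightness over background and the number of arrays limit what could be called, and Psmd10 was too dim to compare closely.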

Other observations

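Probe sets of 2 more core subunits carry a second gene symbol and fell outside the rule. The probe set shared by Psma3, an alpha ring subunit, and Psma3l had signals of 1835, 1792 and 1968 in neurons and 1841, 1594, 1821 and 1167 in astrocytes at rising dose, with the array at 100 µg/ml the lowest of the 7 (log2 change -0.66 from untreated astrocytes). The brighter probe set shared by Psmb6, the beta subunit with the caspase-like site, and Psmb6l1 had 899, 898 and 1057 in neurons and 825, 775, 826 and 835 in astrocytes, with a change of 0.02 at 100 µg/ml. The dimmer one had 0.35 at that dose. The copies of each pair cannot be told apart on these arrays.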
